A study of Rattus norvegicus with 4 samples.

Results

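Solute carriers are membrane proteins that move amino acids, sugars, fatty acids, metals, ions, vitamins and metabolites across the plasma membrane and the membranes of organelles. The set described here holds all genes of the array whose symbol has the form of a solute carrier name, without the bile acid and organic ion carriers (symbols starting Slc10a or Slc22a), the glucose carrier Slc2a2 and the ATP-Mg/phosphate carrier Slc25a25. It has 199 members among the 10412 genes that the array measured by probe sets with 1 symbol, and they belong to 46 numbered families. They were measured by 250 probe sets, and a gene with several was represented by the one with the highest mean. Of the members, 2 share the name but do not transport: Slc7a6os lies opposite the carrier Slc7a6, and Slc4a1ap encodes a protein that binds the carrier Slc4a1.

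The samples were livers of 4 male Sprague-Dawley rats, 10 to 12 weeks old, which received no treatment, ate standard feed and carried no genetic change in the labels. Whole liver RNA of each rat was measured on 1 expression array, so fewer cells of a type and less RNA per cell cannot be told apart. All 4 form 1 group, and the design has no contrast between groups. A difference between rats cannot be told apart from one between arrays.

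In liver, carriers of the hepatocyte surface take up amino acids, fatty acids and metals from portal blood. Carriers of the inner mitochondrial membrane pass nucleotides, phosphate and metabolites between mitochondrion and cytosol, and those of the endoplasmic reticulum and Golgi supply its enzymes with sugar phosphates and nucleotide sugars. The ornithine and aspartate-glutamate carriers are parts of the urea cycle, and the glucose-6-phosphate carrier is needed for the release of glucose.

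Values are log2 signals, given for rats 1 to 4 in that order or as mean ± SD (n = 4). A signal depends on its probes, so the order of 2 genes by signal is not their order by amount of transcript. The arrays shared a median of 8.11. Background was read from 57 genes known from muscle, nervous tissue, testis and eye, whose 72 probe sets had a 95th percentile of 8.24, called the lower level here. When the muscle myosin gene Myh1 was kept in that list, 4 of whose 5 probe sets had means from 10.04 to 11.49, the percentile was 9.25, called the higher level. The hepatocyte markers checked the tissue: all 6 with a probe set were above both levels, with albumin (Alb) at 15.06 ± 0.02. Above the lower level were 4 of 4 Kupffer cell markers, 2 of 4 endothelial, 3 of 6 stellate cell and fibroblast, 2 of 2 blood and 0 of 3 bile duct markers.

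Of the 199 members, 99 (49.7%) were above the lower level, against 50.7% of all genes, and 33 (16.6%) were above the higher level, against 16.1%. Both shares lay near those of all genes, so the family as a whole was not set apart by them. The median signal was 8.24 for members and 8.26 for all genes. On single arrays 98 to 99 members were above the lower level and 33 to 35 above the higher one. The members nearest the lower level were Slc26a8 (8.27) and Slc7a8 (8.28) above it and Slc30a6 (8.24) and Slc9a5 (8.23) just below it. At the higher level they were Slc17a1 (9.26) above and Slc25a20 (9.25) below.

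Carriers known from other tissues were looked at in the same way. Of 18 carriers listed for kidney, brain, gut, red cells, muscle or fat, 2 were above the lower level and 0 above the higher. These were Slc5a2, the sodium-glucose carrier of the kidney tubule, at 8.42 on every array, and Slc6a3, the dopamine carrier, at 8.41 ± 0.03. The second probe set of Slc6a3 was below the lower level at 7.98. The lowest of the 18 was Slc12a1, the sodium-potassium-chloride carrier of the kidney, at 6.53. In all, 79 members (39.7%) had a higher mean than the highest of these 18, as did 41.5% of all genes. The 27 probe sets for Bacillus transcripts had means of 6.48 to 7.75, and 164 members lay above the highest of them. A signal below the lower level is therefore not read as an absent transcript.

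**Figure D1:**
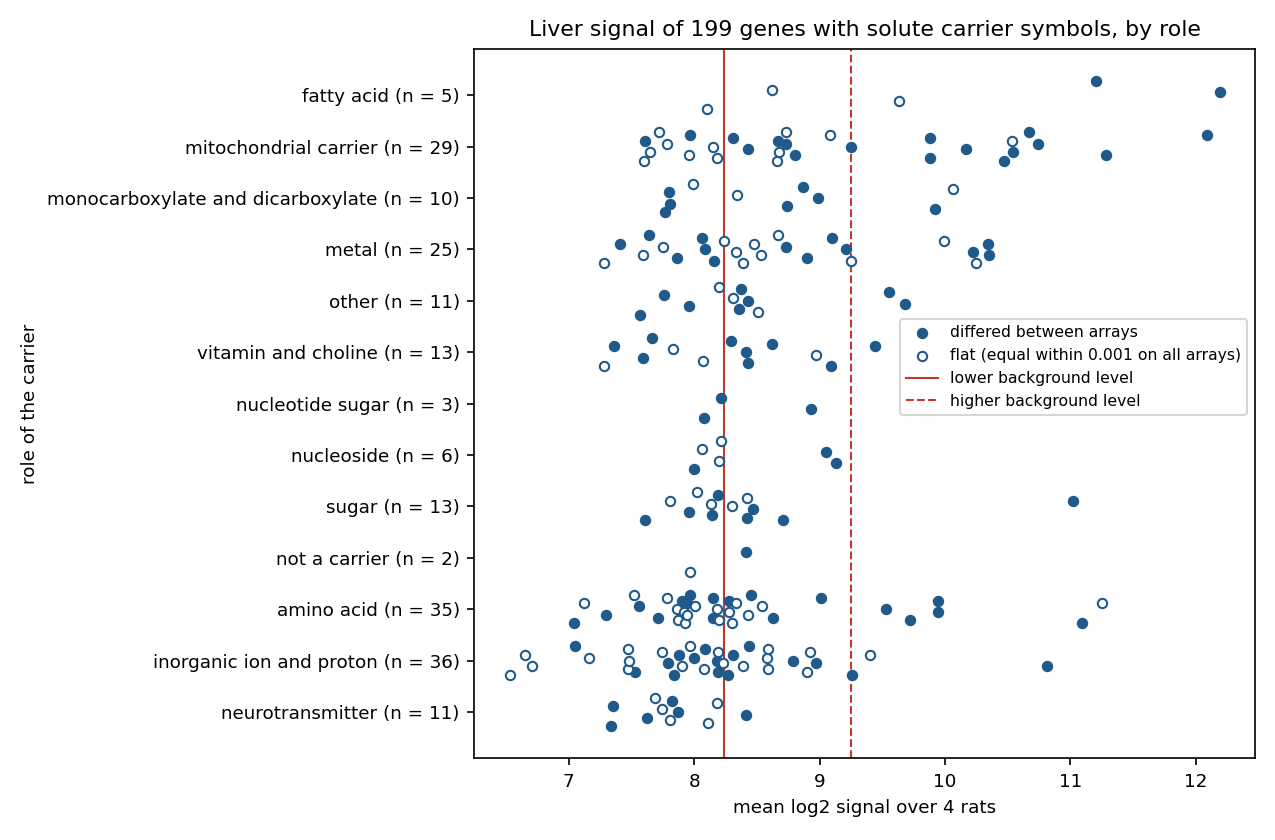
Mean log2 signal over 4 rats (horizontal axis) of the 199 genes, grouped by role (vertical axis). Each point is a gene, open where its values were equal to within 0.001 on all arrays. The lines mark the lower (8.24) and higher (9.25) background levels, and 33 genes lie to the right of the higher one.

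Fatty acid carriers of the Slc27 family activate fatty acids by joining them to coenzyme A. Of the 5 members, 4 (80%) were above the lower level and 3 (60%) above the higher, against 50.7% and 16.1% of all genes. Slc27a2, which takes up long fatty acids and activates very long ones, had signals of 12.18, 12.16, 12.19 and 12.22, the highest mean of all 199 members at 12.19 ± 0.03. The rats lay within 0.062 log2 units of each other. Slc27a5, which joins bile acids to coenzyme A and takes up fatty acids in liver, had 11.70, 10.59, 11.13 and 11.39. Rat 2 was lowest and rat 1 highest, and the SD of 0.47 was the largest of all members. Slc27a4 was at 9.63, Slc27a1 at 8.62 and Slc27a3 at 8.10, each equal on all arrays.

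Because Slc27a5 varied most, the 250 bases before its RefSeq start are shown. They lie at chr1:82699336-82699585, minus strand (GRCr8). Here and in the other windows shown, 4 motifs were searched on both strands, capitals mark a match, and overlapping matches are counted separately. Of the members, 169 had RefSeq promoter entries, 183 in all, and the shares were taken beside those of all 33469 promoters of the same length. The TATA box letters TATAA were in 14.8% of member promoters and 24% of all promoters. The CCAAT box was in 33.9% and 34%. The GC box letters GGGCGG were in 52.5% and 30.5%. The letters TGATGNAA, a form of the amino acid response element, were in 2.73% and 3.4%. The median G and C content of member promoters was 60.8%, against 51.2% in all promoters, which were not limited to genes of the array. These differences were not tested. None of the 4 motifs has its letters in the Slc27a5 window.
Slc27a5: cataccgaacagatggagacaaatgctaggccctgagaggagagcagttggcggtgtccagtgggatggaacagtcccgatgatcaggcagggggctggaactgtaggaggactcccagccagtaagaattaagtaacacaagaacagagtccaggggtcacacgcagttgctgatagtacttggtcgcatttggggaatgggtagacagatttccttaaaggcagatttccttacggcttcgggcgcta

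Mitochondrial carriers, grouped by the family name Slc25, were the largest family, with 29 members. Of these, 20 (69%) were above the lower level and 10 (34.5%) above the higher, against 50.7% and 16.1% of all genes. These differences were not tested. Slc25a5, an exchanger of ADP for ATP, had 12.15, 12.04, 12.14 and 12.03. Slc25a3, which imports phosphate for ATP synthesis, had 11.39, 11.20, 11.31 and 11.22. For both genes rats 1 and 3 were above rats 2 and 4, by little: the SDs were 0.06 and 0.09. Voltage-dependent channels of the outer membrane, the partners of these exchangers, were above both levels too, at 10.52 for Vdac1, 10.28 for Vdac2 and 10.28 for Vdac3.

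Slc25a4, the ADP/ATP exchanger typical of heart and skeletal muscle, was at 8.68 on all 4 arrays, between the levels. The promoters of this pair are shown as the start regions of a gene with high and one with weak signal in the same role. They lie at chrX:120897366-120897615, plus strand, and chr16:52805271-52805520, plus strand (GRCr8, RefSeq). Both hold TATAA 1 time. Slc25a5 holds GGGCGG 3 times and no CCAAT, and Slc25a4 holds CCAAT 2 times and no GGGCGG. A match describes letters and not a site in use.
Slc25a5: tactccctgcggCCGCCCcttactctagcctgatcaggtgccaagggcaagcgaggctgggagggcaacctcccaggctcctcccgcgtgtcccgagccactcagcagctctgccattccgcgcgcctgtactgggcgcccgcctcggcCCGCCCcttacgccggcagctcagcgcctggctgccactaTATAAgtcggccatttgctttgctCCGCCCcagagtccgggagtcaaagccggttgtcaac
Slc25a4: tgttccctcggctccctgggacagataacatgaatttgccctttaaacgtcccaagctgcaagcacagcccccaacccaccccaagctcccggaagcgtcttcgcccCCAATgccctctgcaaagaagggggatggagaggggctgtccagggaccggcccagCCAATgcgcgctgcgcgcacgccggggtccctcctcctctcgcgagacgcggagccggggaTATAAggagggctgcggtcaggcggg

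Carriers tied to the urea cycle followed. Slc25a15, which brings ornithine into the mitochondrion, had 10.86, 10.63, 10.80 and 10.69, with rat 2 lowest. Slc25a13, the aspartate-glutamate carrier of liver also called citrin, was at 10.53 on every array. Its relative Slc25a12, the form of brain and muscle, was at 7.78 on every array, below both levels. Urea cycle enzymes were above both levels: Otc, which uses ornithine, at 11.22 ± 0.15, Ass1, which uses aspartate, at 12.84 ± 0.32, and Cps1, which makes carbamoyl phosphate, at 12.49 ± 0.12.

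Slc25a22, a glutamate carrier, had 10.50, 10.68, 10.91 and 10.59, and rat 3 was highest. The citrate carrier Slc25a1 was at 10.54 ± 0.06. It exports the citrate that Acly (10.39 ± 0.19) splits in the cytosol. Slc25a39, a carrier of glutathione, was at 10.47 ± 0.08, the oxoglutarate carrier Slc25a11 at 10.17 ± 0.04 and the dicarboxylate carrier Slc25a10 at 9.88 ± 0.10. Slc25a11 works in the malate-aspartate shuttle with Got2 (11.74 ± 0.05) and Mdh2 (10.76 ± 0.07). Slc25a23, an ATP-Mg/phosphate carrier, completed the 10 at 9.88 ± 0.05.

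Slc25a20, which exchanges acylcarnitine for carnitine in fatty acid oxidation, lay at the higher level with 9.30, 9.14, 9.24 and 9.31. Rat 2 was lowest. Of the carnitine enzymes, Cpt2 was also lowest in rat 2 (9.77, 9.39, 9.46 and 9.55), Cpt1a in rat 1 (9.93, 10.06, 9.96 and 10.37) and Crat in rat 4 (8.55 ± 0.06 over the rats). Among Slc25 members between the levels, Slc25a30 had the largest SD, with 9.06, 8.51, 8.87 and 8.77. Of the other 8 Slc25 members between the levels, Slc25a4, Slc25a17, Slc25a42 and Slc25a44 were equal on all arrays. The rest had SDs of at most 0.0608. Of the 25 partner genes listed for these carriers and others, 22 had a probe set, and 21 of these were above the lower level. Of all genes, 50.7% were above it, and the partner list too was chosen with earlier results known.

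Amino acid carriers numbered 35, with 15 (42.9%) above the lower level and 6 (17.1%) above the higher, against 50.7% and 16.1% of all genes. Slc38a4, a sodium-coupled carrier of neutral amino acids in hepatocytes, was at 11.25 on all arrays, and Slc38a3, which carries glutamine across the hepatocyte membrane, at 11.09 ± 0.03. Slc38a2, a carrier of small neutral amino acids, was near the lower level, with 8.15, 8.16, 8.24 and 8.57. Rat 4 was highest there. Slc38a1, Slc38a2 and Slc38a4 lie next to each other on chromosome 7 of GRCr8. Slc38a1 (7.90) was below both levels, Slc38a2 (8.28) between them and Slc38a4 above both.

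Slc6a13, the GABA and taurine carrier of liver, had 10.20, 9.57, 9.76 and 10.23. Rats 1 and 4 were high and rats 2 and 3 low, and the SD was 0.33. Slc3a2, the heavy chain that brings amino acid exchangers to the surface, had 10.21, 9.87, 9.74 and 9.93, with rat 1 highest and rat 3 lowest. Among its light chains, Slc7a5 (7.93) and Slc7a6 (7.56) were below both levels, as was Slc7a7 (7.94). Slc7a8 (8.28) was just above the lower level, and Slc7a10 (8.43) also lay between the levels.

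Slc6a6, which carries taurine, and Slc6a9, which carries glycine, showed the same order at their ends. Slc6a6 had 9.81, 9.47, 9.41 and 9.44, and its second probe set had 9.06, 8.79, 8.58 and 8.81. Slc6a9 had 9.87, 9.67, 9.59 and 9.74, and its second probe set had 8.94, 8.70, 8.55 and 8.68. Rat 1 was highest and rat 3 lowest on all 4 of these probe sets. The remaining probe set of Slc6a9 was equal on all arrays at 8.09. For both genes only the brightest probe set had a mean above the higher level. The cationic amino acid carrier Slc7a1 was also highest in rat 1 (8.71 against 8.55 to 8.64), but lowest in rat 2. Its second probe set was equal on all arrays, and the dimmest was highest in rat 4 and lowest in rat 3 (7.44, 7.44, 7.36 and 7.46). Pairs of probe sets test a gene's pattern on separate probes of the same arrays, not in other animals.

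The promoters of Slc6a6 and Slc6a9 are shown because both genes repeated their pattern on a second probe set. They lie at chr4:125752252-125752501, plus strand, and chr5:136659826-136660075, plus strand (GRCr8, RefSeq). Slc6a6 holds GGGCGG 3 times and a stretch that reads TATAA on both strands, and Slc6a9 holds GGGCGG 2 times. Neither window holds the CCAAT box or the amino acid response element.
Slc6a6: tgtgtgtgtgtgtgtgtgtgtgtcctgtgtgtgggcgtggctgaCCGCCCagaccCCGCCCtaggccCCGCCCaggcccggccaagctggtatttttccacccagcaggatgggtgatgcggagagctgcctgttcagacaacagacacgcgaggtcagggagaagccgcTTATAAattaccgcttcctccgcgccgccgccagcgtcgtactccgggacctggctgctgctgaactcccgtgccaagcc
Slc6a9: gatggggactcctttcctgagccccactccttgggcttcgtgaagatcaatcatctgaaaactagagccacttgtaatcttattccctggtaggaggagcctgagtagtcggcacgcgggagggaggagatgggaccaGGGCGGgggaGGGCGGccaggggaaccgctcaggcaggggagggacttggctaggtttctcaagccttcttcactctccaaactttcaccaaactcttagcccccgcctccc

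Of 33 carriers listed as known in liver, 29 were above the lower level and 20 above the higher. The 4 below both levels were Slc7a2, Slc1a2, Slc16a10 and Slc2a5. Over all genes the shares were 50.7% and 16.1%, and the list was chosen with earlier results of these data known. Slc7a2, the cationic amino acid carrier described in liver, was at 7.52 on every array, below both levels. Slc1a2, a glutamate carrier of hepatocytes near the central vein and of astrocytes, was at 7.87 on its brighter and 7.53 on its other probe set. None of the 5 Slc1 members was above the lower level, the highest being Slc1a5 at 8.18. Slc16a10, an aromatic amino acid carrier, was at 7.86, below both levels, and Slc3a1, a subunit of the cystine carrier, was between them at 8.33. The values of Slc7a2, Slc1a2, Slc16a10 and Slc3a1 were equal on all arrays and carry no spread between rats.

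**Figure D2:**
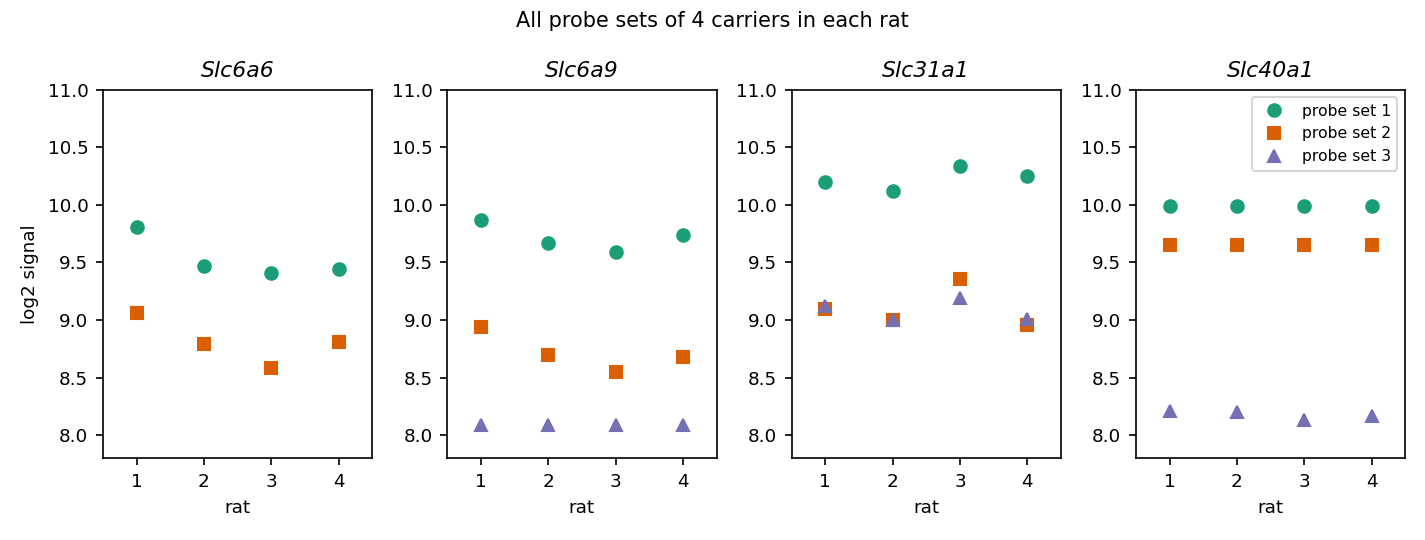
Log2 signal (vertical axis) of every probe set of 4 carriers in each rat (horizontal axis), numbered from the brightest. Rat 1 is highest and rat 3 lowest on 2 probe sets of Slc6a6 and of Slc6a9, rat 3 is highest on all 3 probe sets of Slc31a1, and 2 of 3 probe sets of Slc40a1 are equal in all rats.

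Metal carriers had 15 of 25 members (60%) above the lower level and 5 (20%) above the higher, against 50.7% and 16.1% of all genes. Slc39a14, which imports zinc, iron and manganese, had 10.24, 10.38, 10.38 and 10.36, with rat 1 lowest. Slc41a2, a magnesium carrier, had 10.53, 10.26, 10.35 and 10.25, with rat 1 highest. The zinc importer Slc39a1 was at 10.25 on every array. Ferroportin (Slc40a1), the iron exporter of macrophages and hepatocytes, was at 9.99 on every array, and its other probe sets were at 9.65 and 8.18. The dimmest of the 3 lay below the lower level, so the choice of probe set decides that call.

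Slc31a1, the copper importer, had 10.20, 10.12, 10.34 and 10.25. Its second probe set had 9.10, 9.00, 9.36 and 8.96, and the dimmest had 9.12, 9.00, 9.19 and 9.01. Rat 3 was highest on all 3, while rat 2 was lowest on the brightest and the dimmest and rat 4 on the other. Only the brightest of the 3 had a mean above the higher level. Zinc exporters of the Slc30 family had 3 of 8 members above the lower level and 0 above the higher, with Slc30a3 at 9.10 ± 0.04. Slc11a2, an iron importer, was at 8.73 ± 0.04, the heme carrier Slc48a1 at 8.67, and the zinc importer Slc39a4 had 8.97, 8.81, 9.07 and 8.74. The promoter of Slc31a1, the member with 3 probe sets highest in the same rat, lies at chr5:80830590-80830839, plus strand (GRCr8, RefSeq) and holds GGGCGG 1 time and none of the other 3 motifs.
Slc31a1: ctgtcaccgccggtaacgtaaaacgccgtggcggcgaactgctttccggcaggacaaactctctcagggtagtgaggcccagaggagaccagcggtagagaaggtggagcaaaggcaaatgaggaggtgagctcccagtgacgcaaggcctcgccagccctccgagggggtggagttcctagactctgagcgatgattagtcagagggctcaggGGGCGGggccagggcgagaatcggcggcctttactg

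Sugar carriers had 6 of 13 members (46.2%) above the lower level and 1 (7.69%) above the higher, against 50.7% and 16.1% of all genes. The 1 sugar carrier above the higher level was Slc37a4, which brings glucose-6-phosphate into the endoplasmic reticulum for the last step of glucose release. It had 10.98, 11.01, 11.03 and 11.04, an SD of 0.03. Slc2a1, the glucose carrier of most cells, was at 8.47 ± 0.03, Slc2a5, a fructose carrier, at 8.19 ± 0.03 and Slc2a4, the insulin-regulated carrier of muscle and fat, at 8.02. Of 6 Slc2 members, 1 was above the lower level.

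Monocarboxylate and dicarboxylate carriers were taken from the families Slc16 and Slc13, with Slc16a10 grouped among the amino acid carriers. These families also hold the sulfate carriers Slc13a1 and Slc13a4. Of the 10 members of the group, 6 (60%) were above the lower level and 2 (20%) above the higher. The shares of all genes were 50.7% and 16.1%. Slc16a1, which carries lactate, pyruvate and ketone bodies, was at 10.06 on every array. Its surface partner basigin (Bsg) was at 11.40 ± 0.12, and embigin (Emb), another partner of the family, was below both levels at 7.95 ± 0.05. Slc13a4, a sulfate carrier, had 9.95, 9.79, 10.20 and 9.76, with rat 3 highest. Slc13a3, a dicarboxylate carrier, was also highest in rat 3, with 8.97, 8.83, 9.16 and 9.00. The other sulfate carrier Slc13a1 (7.81) and the muscle form Slc16a3, which exports lactate (7.99), were below both levels.

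Carriers of inorganic ions and protons had 14 of 36 members (38.9%) above the lower level and 3 (8.33%) above the higher. The shares of all genes were 50.7% and 16.1%. Slc26a1, a sulfate carrier of the hepatocyte membrane facing the blood, had 11.01, 10.68, 10.96 and 10.58, so rats 1 and 3 were higher than rats 2 and 4. Slc4a2, a chloride-bicarbonate exchanger, was at 9.40 on every array, and Slc17a1, a sodium-phosphate carrier, at 9.26 ± 0.09. Slc17a3, its neighbour on chromosome 17, had 8.87, 9.00, 8.47 and 8.81, and rat 3 was lowest for both genes. Slc34a2, a sodium-phosphate carrier, had 8.60, 9.18, 9.24 and 8.88. Rat 1 was lowest, and no other member had an SD above 0.25 while lying between the levels.

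Vitamin and choline carriers were grouped with the iodide carrier Slc5a5 (7.59), and 7 of these 13 genes (53.8%) were above the lower level. The share of all genes was 50.7%. The folate carrier Slc46a1, at 9.44 ± 0.06, was the 1 of the 13 above the higher level (7.69%, against 16.1% of all genes). The vitamin C carrier Slc23a1 had 8.91, 9.27, 9.06 and 9.11, and the multivitamin carrier Slc5a6 was at 8.97 in all rats. Nucleoside carriers were above the lower level for 2 of 6 genes, Slc29a1 at 9.13 ± 0.08 and Slc28a2 at 9.05 ± 0.11. Of 3 nucleotide sugar carriers, Slc35a1, which brings CMP-sialic acid into the Golgi, was above it at 8.93 ± 0.02. Its probe sets at 7.64 and 7.07 lay below the lower level, so the choice of probe set decides that call.

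Of 11 neurotransmitter carriers 1 (9.09%) was above the lower level, against 50.7% of all genes. It was Slc6a3, whose second probe set was below that level at 7.98. The GABA carrier Slc6a13 (9.94) and the glycine carrier Slc6a9 (9.72), both above both levels, were counted with the amino acid carriers. Further probe sets of Slc6a9 had means of 8.72 and 8.09, so the choice of probe set decides its call. The vesicular carriers Slc17a7 (8.18), Slc18a2 (8.11), Slc18a3 (7.74) and Slc32a1 (7.35), and the serotonin carrier Slc6a4 (7.69), lay below both levels. Among the 11 other carriers, the acetyl-CoA carrier Slc33a1 was at 9.68 ± 0.04 and Slc66a2 had 9.86, 9.34, 9.51 and 9.48, with rat 1 highest. The 2 members that do not transport were Slc7a6os at 8.41 ± 0.07 and Slc4a1ap at 7.97. For comparison, 15 of the 31 genes kept out of the set or named Slco (48.4%) were above the lower level and 10 (32.3%) above the higher, a difference from the members that was not tested.

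The spread between rats was small for most members. Values equal to within 0.001 on all arrays, called flat here, were found for 88 members (44.2%), against 42.4% of all genes. Flat values made up 53% of members below both levels and 21.2% of those above both, near the 49.7% and 20.6% of all genes. Since an identical value in 4 animals does not measure the animals, spread is described for the 64 members above the lower level that were not flat. Their median SD was 0.0658, against 0.0562 for all such genes, and 44 had an SD under 0.1. An SD of at least 0.25 was found in 3 (4.69%), Slc27a5, Slc6a13 and Slc34a2, against 5.38% of all such genes, or 3.48% of all genes above the lower level with flat ones counted.

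An F test of each gene's variance between rats against limma's prior asked whether any member varied more than other genes of its signal. It was run over all 3422 genes that were above the lower level and not flat. It called 0 genes (0%) after Benjamini-Hochberg adjustment, and the smallest adjusted p of a member was 0.94 by limma. With no adjustment, 137 genes (4%) and 4 of the 64 members (6.25%) had a p under 0.05, the members being Slc34a2, Slc27a5, Slc25a30 and Slc17a3. A p above the threshold does not show that a gene varied no more than others, and 4 rats give little power. In simulated data the test recovered 4.48% of genes whose SD was raised 4-fold, 20.9% at 8-fold and 60.6% at 16-fold. The simulated gene variances scattered less than the measured ones: they were drawn with 4 prior degrees of freedom, against 1.77 fitted here. Recovery in these data can therefore be lower than in the simulation. The count of 3 rested on the rats used: without rat 3 it was 5, with Slc25a30 (0.28) and Slc66a2 (0.27) added, and without rat 4 it was 6, with Slc17a3 (0.28) added too. Without rat 1, Slc34a2 had an SD of 0.19 and Slc17a3 reached 0.27. Slc27a5 and Slc6a13 had SDs of at least 0.29 and 0.26 without any 1 rat.

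**Figure D3:**
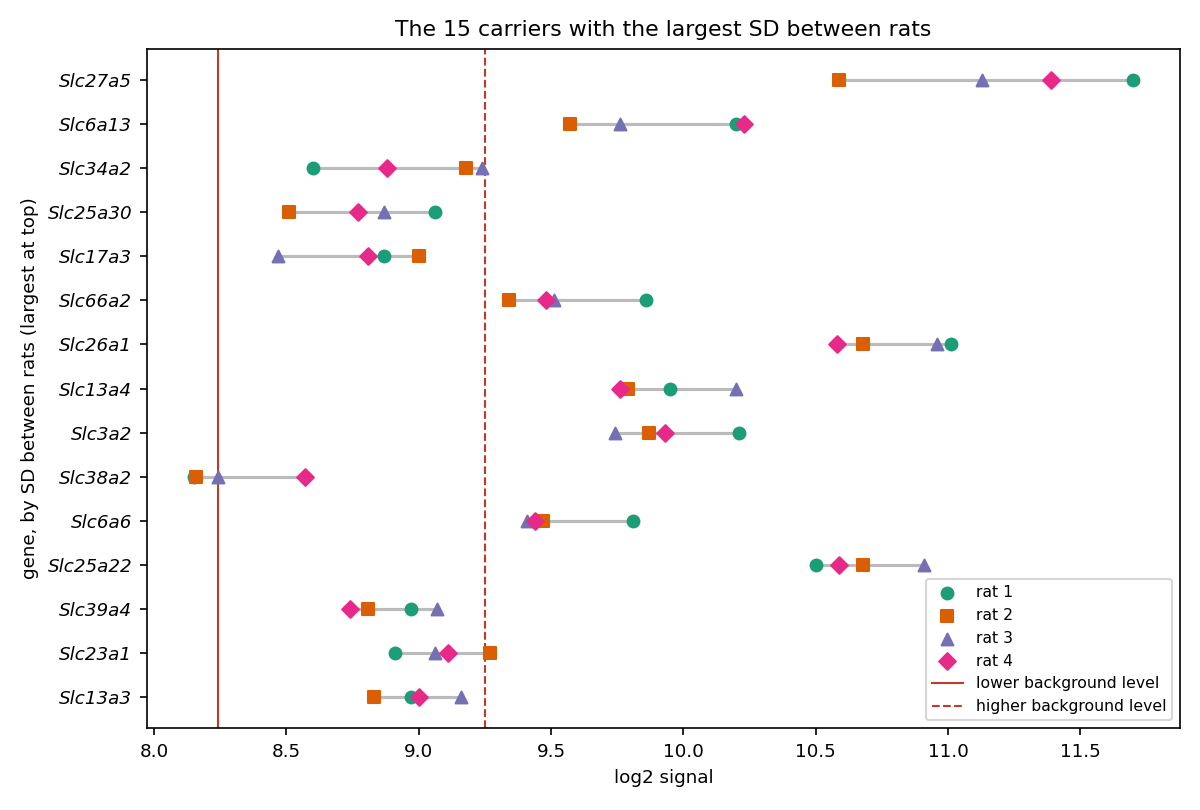
Log2 signal (horizontal axis) in each of 4 rats of the 15 members above the lower level with the largest SD between rats (vertical axis, largest SD at the top). Symbols mark the rats and vertical lines the background levels. Slc27a5 spans 10.59 to 11.70, and rat 2 is lowest for it, Slc6a13, Slc25a30 and Slc66a2.

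The rats at the ends were not the same for all roles. Of the 64 members, the highest value was in rat 1 for 23 (35.9%), in rat 2 for 11 (17.2%), in rat 3 for 20 (31.2%) and in rat 4 for 10 (15.6%). Over all 3422 genes these shares were 24.7%, 21.7%, 32.9% and 20.7%. The lowest value was in rat 1 for 18 members (28.1%), in rat 2 for 21 (32.8%), in rat 3 for 9 (14.1%) and in rat 4 for 16 (25%), against 29.5%, 28.7%, 18.5% and 23.3% of all genes. Most of the members' shares lay near those of all genes. Of 15 mitochondrial carriers, 8 (53.3%) were highest in rat 1, 6 (40%) in rat 3 and 0 in rat 2, which was lowest for 6 (40%). Of 7 carriers of ions and protons, 4 (57.1%) were lowest in rat 4. Median deviations of the roles with at least 5 such genes lay between -0.08 and 0.09 log2 units in every rat, so these orders rest on small differences. No test was run on these counts.

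Other gene groups also differed between the rats. Sterol synthesis genes were lowest in rat 2 for 6 of 6 genes (median deviation -0.74), and genes of fatty acid oxidation for 4 of 6 (-0.08). Among the 64 members, rat 2 was lowest for 32.8%, against 28.7% of all genes. It was lowest for Slc27a5, Slc6a13, Slc25a30 and Slc66a2, and highest for Slc17a3 and Slc23a1. Glucocorticoid and fasting responsive genes had median deviations of -0.47, 0.00, 0.10 and 0.58 in rats 1 to 4. Of these genes, 5 of 7 were highest in rat 4. Slc38a2 was highest there too, while rat 4 was highest for 15.6% of the 64 members, against 20.7% of all genes. The median deviation of the hepatocyte markers lay between -0.02 and 0.04 in all rats, but rat 1 was lowest for 4 of 6, among them Tat (9.52, 10.53, 11.10 and 10.30) and Apoa1 (12.34, 12.98, 13.03 and 12.92). Kupffer cell markers had -0.15, 0.14, 0.08 and -0.05, and stellate cell and fibroblast markers -0.17, 0.19, -0.74 and 0.17. The latter rest on 3 collagen genes. The 2 blood markers had 0.27, -0.15, 0.12 and -0.26. The part of these groups in the spread of the carriers was not tested.

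**Figure D4:**
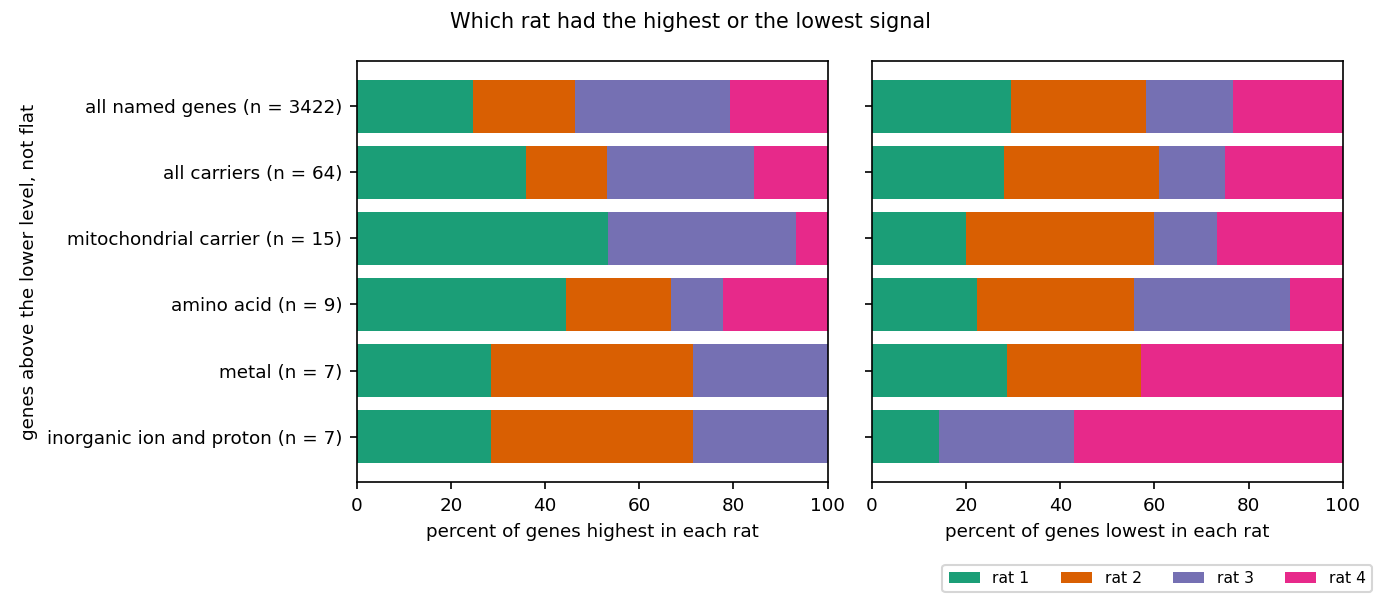
Percent of genes (horizontal axes) whose highest (left) or lowest (right) signal was in each of 4 rats, for all genes and for carriers of several roles (vertical axis) above the lower level and not flat. Rat 1 holds the highest value of 35.9% of 64 carriers and of 24.7% of 3422 genes, and rat 2 the highest of 0 of 15 mitochondrial carriers.

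More than 1 probe set was available for 38 members, and for 12 of these the 2 brightest were both not flat. The same rat was highest on both for 5 of 12 (41.7%), against 34.6% of 613 genes of the array, and lowest for 3 (25%), against 35.4%. With both probe sets above the lower level the counts were 4 (66.7%) and 3 (50%) of 6, against 46% and 44.8% of 252 genes. The members that shared both ends were Slc6a6 and Slc6a9. Slc31a1 and Slc11a2 shared the highest rat, rat 3 for the first and rat 1 for the second, and Slc35a1 the lowest, rat 2. For Slc6a8, a creatine carrier, the probe sets had neither end in common (8.49, 8.40, 8.51 and 8.42 against 8.42, 8.44, 8.36 and 8.41).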

How the data were processed

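Liver RNA of 4 rats was measured on 1 array each. The authors deposited a log2 signal for each of 15923 probe sets. The submitters' processing notes name R 2.4.1, affy 1.12.2, GCRMA and RMA, and which of these gave the values is not given in the sources used here. Per the scanner settings the chip was RAE230A, whereas the labels' protocol gives RAE230-2. All arrays share 1 chip lot and 1 scan day, with 4 fluidics modules, so no batch could be fitted. Replicates are separate animals.

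Gene names come from GEO's platform annotation: 12789 probe sets carried 1 symbol, 312 several and 2822 none. All 199 members matched RefSeq (GRCr8) by gene number, with the same symbol. Flat means a range under 0.001. The number of arrays limits precision. limma 3.58.1 in R 4.3.3 gave the prior of the variance test, robust and trended on signal. The test was run on simulated data first, with the recovery given above. Python 3.11.15, numpy 2.4.6 and pandas 2.3.3 did the rest.

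Members, lists and tests were chosen with earlier results of these data known. Myh1 was left out of the background list because most of its probe sets were already known to be bright in these livers. Named were the 3 brightest members of a role, the 15 above the lower level with the largest SD, 38 carriers known in liver (33 had a probe set), carriers of other tissues, members within 0.05 of the lower level, and members whose probe sets differ by over 2 log2 units (none did). Other genes named, and those whose promoters are printed, were chosen after their values were seen. Alternatives covered the probe set, scaling, background level, SD threshold, prior and each rat.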

Additional observations from a re-analysis of the deposited data

Results flagged for a closer look

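The outer values of 47 named members that were not flat were compared with the gap to the other rats. In Slc6a6, rat 1 (9.81) lay far from the other rats (9.41 to 9.47). It was the only one of the 47, and chance gives such a gap in about 5% of sets. Outside the values used, 2 probe sets annotated with the symbol Slc25a51 under 2 gene numbers had signals above the lower level, at 8.98 and 8.34 on every array. They were left out because the rule asks for a single symbol.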

How the results depend on the processing

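The count of members above the lower level was 99. It was 33 with Myh1 in the background list and 164 with the highest Bacillus control probe set as the level (7.75). Under the other alternatives, which changed the percentile, the probe set, the scaling or the rats used, it lay between 85 and 101, and leaving out 1 rat gave 98 to 99. The count with an SD of at least 0.25 was 3 with another probe set rule, with other scaling and with all members counted. It was 13 at an SD of 0.15, 1 at 0.40 and 6 with a range of at least 0.5, and 3 to 6 when 1 rat was left out. The limma test called 0 members under all 12 alternatives run, with smallest adjusted p-values of members from 0.256 (flat probe sets kept) to 0.96. Equalising medians makes flat values differ slightly, and it moved the SD of 33 of 80 named members by more than that SD or 0.001, as quantile normalization did. The median over a gene's probe sets moved the mean of 14 of 80. A block for scan day was not run, since there was 1 day. No paired analysis was possible because there is 1 group.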
